A study of Rattus norvegicus with 12 samples.

Results

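The keratin genes Krt8, Krt18 and Krt19, the desmin gene Des, the vimentin gene Vim, the nestin gene Nes and the synemin gene Synm were followed in RNA sequencing of cultured rat cardiomyocytes. They were found by gene symbol, and all 7 were among the 17312 symbols that each library lists. The cells were ventricular cardiomyocytes of newborn Wistar rats, as the series describes them. The 4 groups of 3 libraries were stretched cells with Wnt5a siRNA, stretched cells with control siRNA, unstretched cells with Wnt5a siRNA and unstretched cells with control siRNA. Every group thus carried an siRNA, and Wnt5a encodes a secreted Wnt ligand. The groups are called below stretched Wnt5a siRNA, stretched control, unstretched Wnt5a siRNA and unstretched control. The title of the series places the work on Wnt5a and YAP signalling in the response of heart muscle cells to mechanical load. How long and how far cells were stretched is not given in the sources used here. The same holds for whether the libraries of a group came from separate cultures, so the spread that the p-values measure may be technical.

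Intermediate filaments are ropes of coiled-coil proteins that run through the cytoplasm and under the nuclear envelope. Keratins form only as pairs, with a type II chain such as Krt8 bound to a type I chain such as Krt18 or Krt19, and they are known best from simple epithelia. Desmin is the filament of muscle, where it ties Z-discs to each other, to costameres and to the desmosomes of intercalated discs. Vimentin is the filament of fibroblasts and other mesenchymal cells, nestin is a large chain found in progenitor cells, in regenerating muscle and in developing heart, and synemin is a large chain that enters filaments of desmin or vimentin and binds costamere proteins.

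Values are FPKM, fragment numbers divided by transcript length and library size, so levels of different genes can be set beside each other per length. Changes are log2 differences of FPKM + 1 with their standard error, from limma over all 12 libraries, and a gene is called higher or lower where its p, adjusted over the 10518 genes tested, is under 0.05. This scale understates the change of low genes such as Krt19. All 7 genes passed the filter of at least 1 FPKM in at least 3 libraries.

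The summed FPKM of a library ran from 575161 to 709021, and FPKM give no read numbers, so depth is unknown. Wnt5a averaged 5.89 FPKM in stretched Wnt5a siRNA and 6.80 FPKM in stretched control, with overlapping libraries and an adjusted p of 0.387. Its mean was 5.85 FPKM in unstretched Wnt5a siRNA and 11.4 FPKM in unstretched control, with an adjusted p of 0.0014. The siRNA contrast in stretched cells is therefore one between libraries whose Wnt5a levels were not distinguished. Stretched control 3 stood apart from its 2 replicates: log2 values differed from theirs with an SD of 0.393 and 0.426 over genes, against 0.205 to 0.288 for all other pairs within a group. Results that rest on that library are given with it and without it. The 10 of 11 cardiomyocyte markers listed in the files summed to 18114 to 25261 FPKM in stretched Wnt5a siRNA, 25670 to 38086 FPKM in stretched control, 18752 to 22049 FPKM in unstretched Wnt5a siRNA and 26698 to 29629 FPKM in unstretched control, with none at 0 in every library. The label of the cells thus had its defining markers in all 12 libraries. Actc1, the highest of these markers, averaged 16845 FPKM in stretched and 8339 FPKM in unstretched control. Myh6 went the other way, at 1621 and 3685 FPKM. In that comparison 2 of the 10 were called higher and 4 lower, against 27.5% and 26.8% of all genes. The sums thus do not stand for each marker.

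With control siRNA, stretched cells had higher transcript levels of all 7 genes, though after TPM scaling, which gives all libraries a common sum, only Des and Nes passed and after quantile normalization Vim was at -0.03. With Wnt5a siRNA no gene was called higher with stretch in the fit without pairing, and Synm was called lower. Pairing by replicate number added Nes as higher. The 7 genes and the related lists below were chosen with earlier results of these data known, so such counts only describe them. Called higher in stretched against unstretched control cells were 7 of the 7 genes, against 27.5% of all genes tested, and called lower were 0, against 26.8%. The median log2 change was 0.85 over the 7 genes and 0.01 over all genes tested. The count was 4 without unstretched control 2 or 3 and 3 without stretched control 1 or 2. With Wnt5a siRNA, stretch gave 0 genes called higher, against 8.44% of all genes, and 1 called lower, against 7.59%, and the medians were 0.27 and -0.01. With the replicate number as a block 2 were called, Nes higher and Synm lower. The count was 0 without unstretched control 2, unstretched Wnt5a siRNA 1 or 2 or stretched Wnt5a siRNA 1, and 3 without stretched control 3. The difference between these responses was called lower for Des, Nes and Synm, 3 of 7 genes against 12.1% of all genes, and higher for 0, against 11.7%. Without stretched control 3 it was called lower for 5 genes, with Krt8 and Krt18 added.

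**Figure D1:**
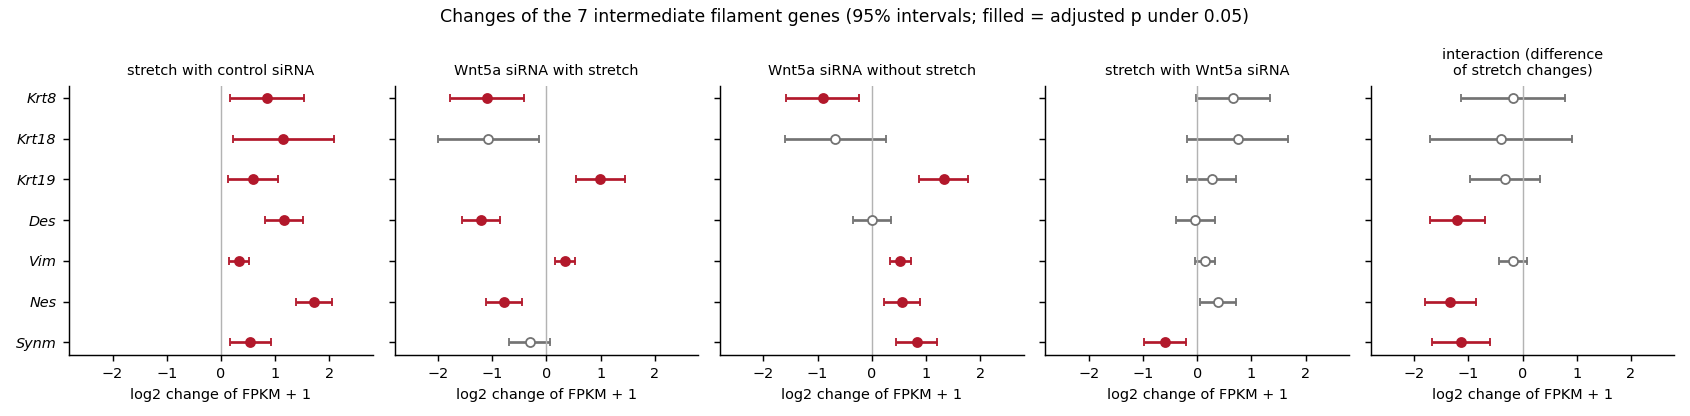
Log2 change of FPKM + 1 (x axis) of the 7 genes (rows) in each comparison, with 95% intervals from limma; filled points passed an adjusted p of 0.05 and open points did not. For stretch with control siRNA all 7 points lie right of 0, and in the difference of the stretch changes Des, Nes and Synm are filled, between -1.33 and -1.14.

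The siRNA moved the genes in both directions. Under stretch, Wnt5a siRNA against control siRNA gave 2 genes called higher, Krt19 and Vim, against 13.2% of all genes, and 3 called lower, Krt8, Des and Nes, against 14.2%. The median log2 change was -0.78 over the 7 genes and 0.00 over all genes tested. Without stretched control 1 the count was 3. Without stretch, 4 genes were called higher, Krt19, Vim, Nes and Synm, against 14.6% of all genes, and 1 was called lower, Krt8, against 13.9%. The medians there were 0.53 and 0.00, and 3 genes were called without unstretched control 2 or 3 or unstretched Wnt5a siRNA 1 or 2. Krt8 was thus lower, and Krt19 and Vim higher, with Wnt5a siRNA in stretched and in unstretched cells. Stretch with control siRNA and Wnt5a siRNA under stretch share the stretched control libraries, and stretch with control siRNA and Wnt5a siRNA without stretch share the unstretched control libraries.

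Krt8 encodes the type II keratin of simple epithelia. Its level was 14.4, 18.4 and 12.2 FPKM in stretched Wnt5a siRNA, 43.9, 49.4 and 15.9 FPKM in stretched control, 10.1, 7.27 and 9.85 FPKM in unstretched Wnt5a siRNA and 18.0, 17.4 and 18.0 FPKM in unstretched control. Stretched control 1 and 2 are more than any other library holds, and stretched control 3 is below all 3 unstretched control libraries. In unstretched Wnt5a siRNA all 3 libraries are below every other library of the series.

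Krt18 encodes the type I keratin that pairs with the Krt8 protein. Its level was 23.1, 22.5 and 16.4 FPKM in stretched Wnt5a siRNA, 69.9, 74.8 and 15.9 FPKM in stretched control, 13.9, 9.995 and 11.6 FPKM in unstretched Wnt5a siRNA and 24.3, 17.5 and 16.8 FPKM in unstretched control. As for Krt8, stretched control 1 and 2 are highest, stretched control 3 is below unstretched control and unstretched Wnt5a siRNA is lowest. Between these the order differs. Unstretched control averaged more than stretched Wnt5a siRNA for Krt8 and less for Krt18. Over the 12 libraries log2 values of both genes had a Pearson correlation of 0.962, a description only, since the libraries fall into 4 groups and 2 libraries are far above the rest.

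With all libraries, Krt8 averaged 36.4 ± 18.0 FPKM in stretched control and 17.8 ± 0.3 FPKM in unstretched control (SD, n = 3 each), a log2 change of 0.85 ± 0.31 with an adjusted p of 0.0370. Krt18 averaged 53.5 ± 32.7 FPKM in stretched control and 19.5 ± 4.1 FPKM in unstretched control (SD, n = 3 each), a change of 1.15 ± 0.43 with an adjusted p of 0.0380. Libraries overlap for both genes. Without stretched control 3 the changes were 1.34 ± 0.15 for Krt8, with an adjusted p of 2.1e-05, and 1.86 ± 0.18 for Krt18, with an adjusted p of 6.4e-06. The calls for Krt8 were lost on leaving out unstretched control 1, 2 or 3 or stretched control 1 or 2, with changes of 0.55 to 0.85 and adjusted p from 0.0730 to 0.153. For Krt18 they were lost without unstretched control 2 or 3 or stretched control 1 or 2, with changes of 0.77 to 1.08 and adjusted p from 0.0946 to 0.153.

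Under stretch, Krt8 averaged 15.01 ± 3.11 FPKM with Wnt5a siRNA against the 36.4 FPKM of stretched control, a change of -1.09 ± 0.31 with an adjusted p of 0.0242. Krt18 was at 20.7 ± 3.7 FPKM with Wnt5a siRNA (SD, n = 3), and its change of -1.07 ± 0.43 did not pass the threshold, with an adjusted p of 0.0815. Stretched control 3 lies within the range of the stretched Wnt5a siRNA libraries for Krt8, and below all 3 of them for Krt18. Without that library the changes were -1.59 ± 0.15 for Krt8 and -1.77 ± 0.18 for Krt18, with adjusted p of 2.1e-05 and 2.6e-05. The Krt8 call was lost without stretched control 1 or 2 or stretched Wnt5a siRNA 1 or 3, at -1.07 to -0.80 and adjusted p from 0.0668 to 0.106.

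**Figure D2:**
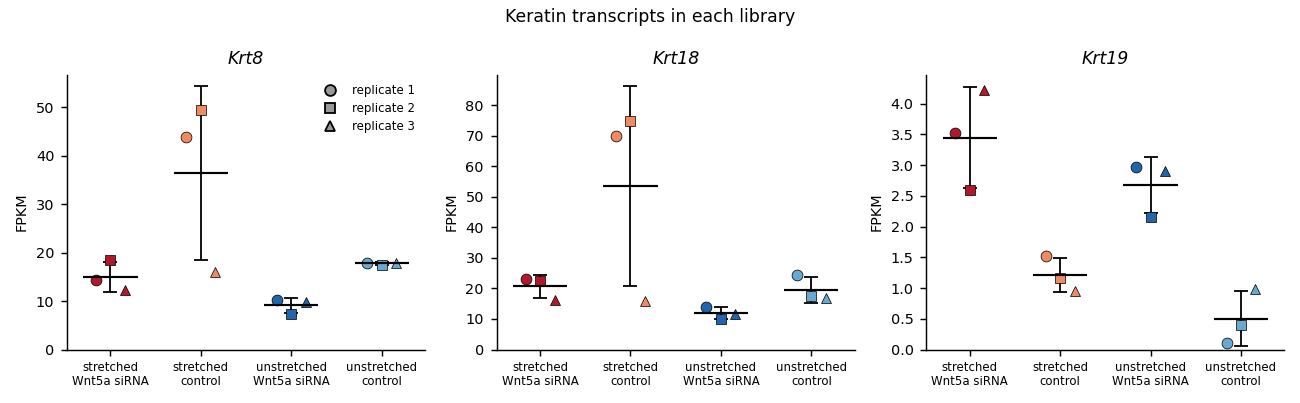
FPKM (y axis) of Krt8, Krt18 and Krt19 in each of the 12 libraries, by group (x axis); the marker shape gives the replicate number, the long bar is the mean and the whisker is 1 SD. Stretched control 1 and 2 stand above all other libraries for Krt8 and Krt18, while Krt19 is highest in the 2 Wnt5a siRNA groups.

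In unstretched cells no library of 1 siRNA group overlapped the other for either keratin. Krt8 averaged 9.09 ± 1.58 FPKM with Wnt5a siRNA and 17.8 ± 0.3 FPKM with control siRNA, a change of -0.91 ± 0.31 with an adjusted p of 0.0468. Krt18 averaged 11.8 ± 2.0 FPKM with Wnt5a siRNA and 19.5 ± 4.1 FPKM with control siRNA (SD, n = 3 each), a change of -0.67 ± 0.43 with an adjusted p of 0.267. The fit takes 1 spread for all groups, and stretched control 3 enters it: without that library the same changes had adjusted p of 4.0e-04 for Krt8 and 0.0059 for Krt18. The Krt8 call was lost on leaving out any of the 6 unstretched libraries, at -0.99 to -0.77, or any of the 3 stretched Wnt5a siRNA libraries, at -0.91, with adjusted p from 0.0537 to 0.150.

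Between the 2 Wnt5a siRNA groups, stretched libraries were above unstretched ones for both keratins with no overlap. The changes were 0.66 ± 0.31 for Krt8 and 0.75 ± 0.43 for Krt18, with adjusted p of 0.176 and 0.262. Without stretched control 3 they passed, with adjusted p of 0.0045 and 0.0048. The difference between the stretch changes was -0.18 ± 0.44 for Krt8 and -0.40 ± 0.61 for Krt18, with adjusted p of 0.796 and 0.667. Without stretched control 3 it was -0.68 for Krt8 and -1.10 for Krt18, with adjusted p of 0.0228 and 0.0044. Whether the stretch response of these keratins differed between the siRNAs therefore rests on that 1 library.

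The level of Krt8 relative to Krt18 varied less than either gene. The ratio of Krt8 to Krt18 averaged 0.730 in stretched Wnt5a siRNA, 0.763 in stretched control, 0.769 in unstretched Wnt5a siRNA and 0.935 in unstretched control. In stretched control it was 0.629, 0.661 and 0.9996, so the third library differs from the others in the ratio as well as in both levels. None of the 4 group comparisons of this ratio had an exact permutation p under 0.2 (2-sided, 3 against 3 libraries, where the smallest possible p is 0.1). Of 16 such comparisons of ratios made in all, none could pass 0.05.

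Krt8 and Krt18 lie next to each other on rat chromosome 7 with 1 provisional gene between them in the RefSeq table of the assembly GRCr8. Their upstream windows are shown because their transcripts varied together over the libraries, and those of Des and Nes because both genes had a stretch response that differed between the siRNAs. Each window holds the 250 bases before the RefSeq start, and capitals mark matches to GGGCGG, a core bound by SP1, and to TATAAA, the TATA motif, on either strand.
Krt8, chr7:135010340-135010589, minus strand: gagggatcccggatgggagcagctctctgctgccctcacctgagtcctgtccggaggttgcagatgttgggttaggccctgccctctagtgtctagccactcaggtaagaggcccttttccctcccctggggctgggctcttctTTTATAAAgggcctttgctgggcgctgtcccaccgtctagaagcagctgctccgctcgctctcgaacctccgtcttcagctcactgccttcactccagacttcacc
Krt18, chr7:135035918-135036167, plus strand: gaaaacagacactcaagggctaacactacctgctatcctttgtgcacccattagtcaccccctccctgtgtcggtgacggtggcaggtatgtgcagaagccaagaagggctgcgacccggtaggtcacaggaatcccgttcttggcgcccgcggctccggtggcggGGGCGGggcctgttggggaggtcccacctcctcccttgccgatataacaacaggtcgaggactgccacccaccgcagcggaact
Des, chr9:84299376-84299625, plus strand: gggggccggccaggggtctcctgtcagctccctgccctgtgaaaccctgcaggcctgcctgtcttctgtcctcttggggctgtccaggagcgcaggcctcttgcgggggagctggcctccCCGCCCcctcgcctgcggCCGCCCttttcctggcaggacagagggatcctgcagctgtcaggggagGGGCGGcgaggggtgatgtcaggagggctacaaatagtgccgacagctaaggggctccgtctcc
Nes, chr2:175736338-175736587, plus strand: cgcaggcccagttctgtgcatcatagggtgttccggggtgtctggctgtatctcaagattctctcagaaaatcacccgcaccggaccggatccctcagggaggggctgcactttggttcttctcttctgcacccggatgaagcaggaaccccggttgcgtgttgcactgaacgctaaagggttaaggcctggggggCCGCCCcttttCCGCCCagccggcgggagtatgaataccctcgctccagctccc

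Windows of 6 of the 7 genes were matched by symbol. SP1 matches were in 4 of the 6, Krt18, Des, Vim and Nes, and in 32.4% of all 27457 windows of this length. TATA matches were in 2 of the 6, Krt8 and Vim, and in 13.1% of all windows. In Krt8 the match reads TATAAA on both strands, 104 and 106 bases before the start, and the single SP1 match of Krt18 is 84 bases before it. E-box matches, CANNTG, were in Krt8 and Des and in 65.2% of all windows. None of the 6 windows held the AP-1 motif TGANTCA, which 6.4% of all windows hold, or the TEAD motif GGAATG, which 11.8% hold. The CArG box and the MEF2 motif, both known from muscle promoters, were in 1.5% and 0.6% of all windows and in none of the 6. Matches on both strands were counted, a match is not a shown binding site, and no match says only that these letters are not in this window. GC content was 60.0% for Krt8, 62.0% for Krt18, 68.8% for Des, 60.4% for Nes, 62.4% for Vim and 49.2% for Synm. The median was 52.0% over all windows. The stretch response of Synm also differed between the siRNAs, but its window is not shown, and it held none of these motifs.

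Krt19 encodes a small type I keratin of simple epithelia and of several progenitor cells. Its level was 3.52, 2.59 and 4.22 FPKM in stretched Wnt5a siRNA, 1.52, 1.17 and 0.96 FPKM in stretched control, 2.97, 2.15 and 2.90 FPKM in unstretched Wnt5a siRNA and 0.11, 0.40 and 0.99 FPKM in unstretched control. All 6 Wnt5a siRNA libraries are above all 6 control libraries, with and without stretch. Unlike Krt8 and Krt18, it had its highest library in stretched Wnt5a siRNA.

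With Wnt5a siRNA Krt19 rose under stretch by 0.995 ± 0.21, with an adjusted p of 0.0070, and without stretch by 1.32 ± 0.21, with an adjusted p of 0.0013. Stretch changed it by 0.59 ± 0.21 with control siRNA, with an adjusted p of 0.0304 and overlapping libraries, and by 0.27 ± 0.21 with Wnt5a siRNA, with an adjusted p of 0.429. The difference of these was -0.33 ± 0.30, with an adjusted p of 0.445. Its values were whole multiples of the lowest one, to within 0.03, once divided by the relative value of 1 fragment in each library. The multiples were 38, 26 and 44 in stretched Wnt5a siRNA, 14, 12 and 9 in stretched control, 32, 23 and 30 in unstretched Wnt5a siRNA and 1, 4 and 9 in unstretched control. The Krt19 levels of the control libraries thus may rest on few fragments each. With a pseudocount of 0.1 in place of 1 the change with stretch and control siRNA was 1.41, and that with Wnt5a siRNA in unstretched cells was 2.49. The stretch call with control siRNA was lost without unstretched control 1 or 2 or stretched control 1 or 2, at 0.40 to 0.61 and adjusted p from 0.0556 to 0.132.

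Set against Krt18, Krt19 was at 0.175 of its level on average in stretched Wnt5a siRNA and 0.0325 in stretched control, and at 0.226 in unstretched Wnt5a siRNA and 0.0289 in unstretched control. For both siRNA comparisons of this ratio the exact permutation p was 0.1, the smallest that 3 against 3 libraries allow, and 0.2 after adjustment over 16 comparisons. Krt19 was thus higher relative to Krt18 in all 6 Wnt5a siRNA libraries, at 0.115 to 0.258 of the Krt18 level. In the 6 control libraries it was at 0.0046 to 0.0602. With FPKM + 1 the log2 difference of this ratio between the siRNAs was 2.06 under stretch and 1.99 without it, against 2.60 and 3.61. Other type I keratins were not part of this ratio.

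Markers of cells that carry keratins were measured beside them. The 6 of 8 mesothelial and epicardial markers listed summed to 25.3 to 28.2 FPKM in stretched Wnt5a siRNA, 20.1 to 26.2 FPKM in stretched control, 20.4 to 22.4 FPKM in unstretched Wnt5a siRNA and 17.7 to 20.1 FPKM in unstretched control. All 7 epithelial markers were listed, and their sums were 0.870 to 1.09 FPKM in stretched Wnt5a siRNA, 1.002 to 1.591 FPKM in stretched control, 0.866 to 1.12 FPKM in unstretched Wnt5a siRNA and 0.364 to 0.792 FPKM in unstretched control. No marker of either list was at 0 in every library. The epithelial sums were mostly Cldn4, the highest of these markers in every group and the only 1 of the 7 that was tested. The other epithelial markers averaged at most 0.210 FPKM in any group. Cldn4 rose with stretch and control siRNA by 0.69 ± 0.15, with an adjusted p of 0.0025. Stretched control 3, the library with low Krt8 and Krt18 in its group, had the highest sums of both lists there, 26.2 FPKM against 20.8 and 20.1 FPKM in stretched control 1 and 2 for the mesothelial and epicardial markers, and 1.59 FPKM against 1.23 and 1.002 FPKM for the epithelial markers. Upk1b alone ran from 2.59 to 8.37 FPKM over the stretched control libraries, the widest range of the mesothelial and epicardial markers. The difference in their sum may thus rest largely on that gene. Stretched control 3 also had the lowest cardiomyocyte sum of its group, 25670 FPKM against 35102 and 38086 FPKM. Its fibroblast sum was 8308 FPKM, against 4799 and 4841 FPKM in stretched control 1 and 2. Its macrophage sum was 365 FPKM, against 218 and 224 FPKM, and its smooth muscle and pericyte sum was 4177 FPKM, against 7073 and 6045 FPKM. The epithelial sums are near the filter for a single gene, while Krt8 and Krt18 are at 7.27 FPKM or more in every library. The part of these cells in the keratin results was not tested, and in such bulk samples fewer cells of a type and less RNA per cell cannot be told apart.

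Des, the muscle filament, was at 494, 711 and 482 FPKM in stretched Wnt5a siRNA, 1578, 1088 and 1203 FPKM in stretched control, 548, 666 and 499 FPKM in unstretched Wnt5a siRNA and 573, 542 and 584 FPKM in unstretched control. The 3 stretched control libraries are above all 9 others, which overlap among themselves. Des averaged 1290 ± 257 FPKM in stretched control and 566 ± 22 FPKM in unstretched control (SD, n = 3 each), which is 228% of the unstretched level. The log2 change was 1.17 ± 0.16 with an adjusted p of 8.5e-05. Under stretch, Des averaged 562 ± 129 FPKM with Wnt5a siRNA, 43.6% of stretched control, a change of -1.20 with an adjusted p of 0.0016.

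In the other 2 comparisons no change of Des was detected. Wnt5a siRNA changed it by 0.00 ± 0.16 in unstretched cells and stretch changed it by -0.03 ± 0.16 with Wnt5a siRNA, with adjusted p of 0.994 and 0.917. The 95% intervals of these changes were -0.35 to 0.36 and -0.39 to 0.32. The stretch change with Wnt5a siRNA minus that with control siRNA was -1.20 ± 0.23, with an adjusted p of 0.0047. Without stretched control 3 it was -1.24.

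**Figure D3:**
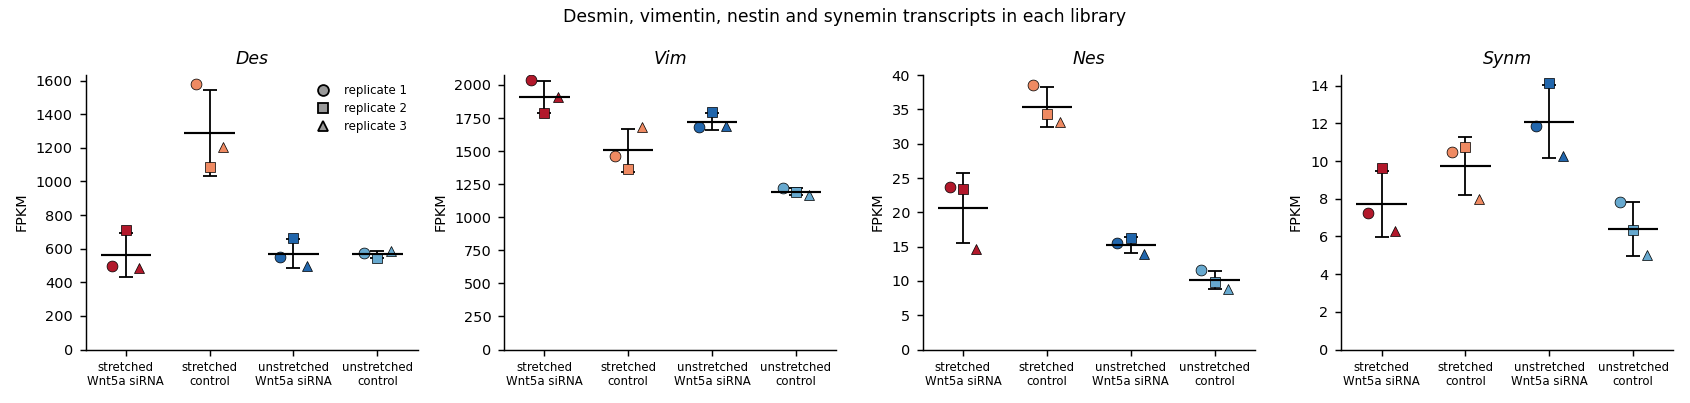
FPKM (y axis) of Des, Vim, Nes and Synm in each of the 12 libraries, by group (x axis); the marker shape gives the replicate number, the long bar is the mean and the whisker is 1 SD. For Des and Nes the 3 stretched control libraries stand above the other 9, Vim is lowest in unstretched control, and Synm is highest on average in unstretched Wnt5a siRNA.

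Nes was at 23.7, 23.4 and 14.7 FPKM in stretched Wnt5a siRNA, 38.6, 34.3 and 33.1 FPKM in stretched control, 15.5, 16.3 and 13.9 FPKM in unstretched Wnt5a siRNA and 11.5, 9.88 and 8.89 FPKM in unstretched control. The stretched control libraries are again above all others, and the unstretched control libraries are below all others. Nestin transcripts rose with stretch and control siRNA by 1.71 ± 0.15, with an adjusted p of 4.7e-06 and a mean at 350% of unstretched control. This was the largest log2 change of the 7 genes in that comparison with all libraries, but without stretched control 3 Krt18 was above it, at 1.86 against 1.76 for Nes. With Wnt5a siRNA the stretch change was 0.38 ± 0.15, with an adjusted p of 0.116 and overlapping libraries. The labels do not say what the replicate numbers share. Libraries were taken as paired in that comparison because deviations of same-numbered ones from their group means correlated at 0.143 to 0.242. With the replicate number as a block Nes was called higher there, at the same change and an adjusted p of 0.0380. Leaving out stretched Wnt5a siRNA 3 gave 0.60 with an adjusted p of 0.0076.

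The stretch change of Nes was smaller by 1.33 ± 0.22 with Wnt5a siRNA than with control siRNA on the log2 scale, with an adjusted p of 0.0025. Wnt5a siRNA went with less Nes in stretched cells, at -0.78 and an adjusted p of 0.0056, and with more in unstretched cells, at 0.55 and an adjusted p of 0.0189. No libraries overlapped in either. The second of these calls was lost without unstretched control 2 or 3 or unstretched Wnt5a siRNA 1 or 2, at 0.47 to 0.54 and adjusted p from 0.0556 to 0.0787.

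Synm was at 7.24, 9.64 and 6.29 FPKM in stretched Wnt5a siRNA, 10.5, 10.8 and 7.98 FPKM in stretched control, 11.9, 14.1 and 10.3 FPKM in unstretched Wnt5a siRNA and 7.84, 6.34 and 5.02 FPKM in unstretched control. Synemin transcripts were thus higher in stretched than in unstretched cells with control siRNA, and lower in stretched than in unstretched cells with Wnt5a siRNA, with no overlap in either pair. The change was 0.55 ± 0.18 with control siRNA, with an adjusted p of 0.0198, and -0.59 ± 0.18 with Wnt5a siRNA, with an adjusted p of 0.0382. With the replicate block the second had an adjusted p of 0.0067. The difference between them was -1.14 ± 0.25, with an adjusted p of 0.0081.

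Wnt5a siRNA went with more Synm in unstretched cells, by 0.83 ± 0.18 with an adjusted p of 0.0053, and the change under stretch was -0.31 ± 0.18 with an adjusted p of 0.206. The stretch call with control siRNA was lost without unstretched control 3 or stretched control 1 or 2, at 0.40 to 0.49 and adjusted p from 0.0634 to 0.0923. The stretch call with Wnt5a siRNA was lost without unstretched control 2, unstretched Wnt5a siRNA 1 or 2 or stretched Wnt5a siRNA 1 or 3, at -0.60 to -0.47 and adjusted p from 0.0540 to 0.135. The difference between the stretch changes of Des, Nes and Synm passed in each of these refits.

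Vim was at 2036, 1790 and 1908 FPKM in stretched Wnt5a siRNA, 1464, 1368 and 1685 FPKM in stretched control, 1680, 1794 and 1690 FPKM in unstretched Wnt5a siRNA and 1221, 1188 and 1167 FPKM in unstretched control. It was the most abundant of the 7 genes in 11 of the 12 libraries, stretched control 1 being the exception. Every library of unstretched control is below every library of the other groups. Vim rose with Wnt5a siRNA by 0.35 ± 0.09 under stretch and by 0.53 ± 0.09 without it, with adjusted p of 0.0129 and 0.0014. Without stretched control 1 the first was 0.33, with an adjusted p of 0.0562. With control siRNA it was higher in stretched cells by 0.33 ± 0.09, with an adjusted p of 0.0058, but after quantile normalization this change was -0.03. With Wnt5a siRNA the stretch change was 0.15 ± 0.09, with an adjusted p of 0.263, and -0.12 after quantile normalization.

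Summed fibroblast markers, like Vim, were highest in stretched Wnt5a siRNA and lowest in unstretched control, though single markers differed. The 10 markers summed to 8781 to 9401 FPKM in stretched Wnt5a siRNA, 4799 to 8308 FPKM in stretched control, 5211 to 5497 FPKM in unstretched Wnt5a siRNA and 3464 to 3970 FPKM in unstretched control. One of the 10, Col1a2, was listed at 0 in every library. Col1a1 was the highest marker in every group. Of 9 tested, Wnt5a siRNA without stretch gave 3 called higher, against 14.6% of all genes, and 1 lower, against 13.9%. The lower one was Dcn, at 100 FPKM against 216 FPKM in unstretched control, a change of -1.09 with an adjusted p of 5.1e-04. Thy1 had its lowest mean, 98.4 FPKM, in stretched Wnt5a siRNA. Smooth muscle and pericyte markers, 8 of 8 listed, summed to 3233 to 3740 FPKM in stretched Wnt5a siRNA, 4177 to 7073 FPKM in stretched control, 4323 to 6418 FPKM in unstretched Wnt5a siRNA and 4555 to 5643 FPKM in unstretched control. The 8 endothelial markers summed to 42.0 to 71.2 FPKM in stretched Wnt5a siRNA, 21.7 to 32.7 FPKM in stretched control, 10.5 to 27.4 FPKM in unstretched Wnt5a siRNA and 13.9 to 27.9 FPKM in unstretched control. Macrophage markers, 6 of 6 listed, summed to 261 to 300.3 FPKM in stretched Wnt5a siRNA, 218 to 365 FPKM in stretched control, 105 to 112 FPKM in unstretched Wnt5a siRNA and 107 to 135 FPKM in unstretched control, so stretched libraries were above unstretched ones with either siRNA. The 5 Schwann cell markers summed to 6.32 to 7.37 FPKM in stretched Wnt5a siRNA, 3.98 to 5.10 FPKM in stretched control, 7.31 to 8.49 FPKM in unstretched Wnt5a siRNA and 7.06 to 8.45 FPKM in unstretched control. The part of these cells in the changes of Vim, Des and Nes was not tested.

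The balance of the 2 most abundant filament transcripts differed between the groups. Vim was at 4.12, 2.52 and 3.95 times the Des level in stretched Wnt5a siRNA, 0.927, 1.26 and 1.40 times in stretched control, 3.07, 2.70 and 3.38 times in unstretched Wnt5a siRNA and 2.13, 2.19 and 1.998 times in unstretched control. Stretched control 1 was the single library with more Des than Vim per length. Libraries did not overlap between stretched and unstretched control, nor between the siRNAs with or without stretch, and each of these comparisons had the smallest possible exact permutation p of 0.1, adjusted 0.2. For stretch with Wnt5a siRNA the exact p was 0.6. Of the summed FPKM of the 7 genes, Des made up 19.0% to 27.6% in stretched Wnt5a siRNA, 40.6% to 49.2% in stretched control, 22.3% to 26.5% in unstretched Wnt5a siRNA and 30.4% to 32.4% in unstretched control.

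**Figure D4:**
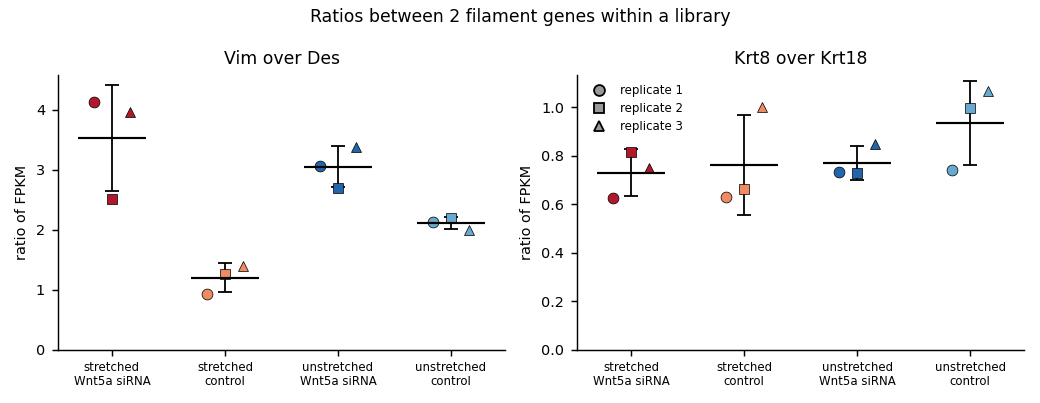
Ratio of FPKM of Vim over Des and of Krt8 over Krt18 (y axis) in each of the 12 libraries, by group (x axis); the marker shape gives the replicate number, the long bar is the mean and the whisker is 1 SD. Vim over Des averages 3.53 in stretched Wnt5a siRNA, 1.195 in stretched control, 3.05 in unstretched Wnt5a siRNA and 2.11 in unstretched control, while Krt8 over Krt18 overlaps between all groups compared.

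Synm relative to Des, its filament partner, averaged 0.0138 in stretched Wnt5a siRNA and 0.0077 in stretched control, and 0.0212 in unstretched Wnt5a siRNA and 0.0113 in unstretched control. The exact permutation p was 0.1 for both siRNA comparisons and for stretch with Wnt5a siRNA, and 0.2 for stretch with control siRNA.

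Scaling of the libraries matters for the count of genes that rose with stretch. The FPKM sums differ between groups, and rescaling each library to a common sum (TPM) shifted the whole distribution. The median gene was then at -0.20 for stretch with control siRNA, and at -0.12 for stretch with Wnt5a siRNA. The siRNA comparison of stretched cells had its median gene at 0.10. On that scale 2 of the 7 genes, Des at 0.94 and Nes at 1.498, were called higher with stretch and control siRNA. Relative to the moved median the 7 changes were 0.82 for Krt8, 1.13 for Krt18, 0.69 for Krt19, 1.14 for Des, 0.30 for Vim, 1.69 for Nes and 0.54 for Synm. Of all genes, 1450 were then called higher and 4506 lower for that comparison, against 2889 and 2822 before. For Wnt5a siRNA under stretch the split was 2190 and 811, against 1386 and 1489. For stretch with Wnt5a siRNA it was 501 and 1779, against 888 and 798, and for the difference 1611 and 815, against 1226 and 1277.

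Genes with the pattern most like each of the 7 were sought among tested genes with a mean of at least 5 FPKM, by the Pearson correlation of log2 values over the 12 libraries. These correlations are descriptions, since the libraries share 4 groups. For Krt8 they were Timm23 (0.973), Yae1d1 (0.968) and Riok3 (0.966), and for Krt18 they were Ctnna1 (0.969), Riok3 (0.968) and Nudt19 (0.963). Ctnna1 encodes alpha-catenin of adherens junctions. For Des they were Lamc1 (0.968), a laminin chain, Cfl2 (0.965), the cofilin of muscle, and Clu (0.963), clusterin. Vim was most like Col5a1 (0.976), a fibrillar collagen chain, Ptdss1 (0.972) and Rpsa (0.972). Nes was most like Dhx15 (0.993), Eif2s2 (0.987) and Anxa5 (0.986). Krt19 had Wisp1 (0.932), Hnrnpul1 (0.929) and Usp22 (0.919), and Synm had Gsdmd (0.914) and Pgm1 (0.912).

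Other genes of the intermediate filament family were described from a list of 27, of which 24 are listed in the files and 7 were tested. With stretch and control siRNA 3 of the 7 were called higher, Krt80, Lmna and Lmnb2, against 27.5% of all genes tested. Called lower were 0, against 26.8%, and the median log2 change was 0.41. Krt80, a type II keratin of epithelia, was at 4.24, 9.12 and 3.71 FPKM in stretched Wnt5a siRNA, 29.1, 16.4 and 11.6 FPKM in stretched control, 5.67, 6.56 and 2.65 FPKM in unstretched Wnt5a siRNA and 3.98, 2.37 and 1.79 FPKM in unstretched control. All 3 stretched control libraries are above the other 9, as for Des and Nes. The stretch change was 2.38 ± 0.37 with control siRNA, with an adjusted p of 2.1e-04, and 0.15 ± 0.37 with Wnt5a siRNA, with an adjusted p of 0.830. The difference was -2.23 ± 0.53 with an adjusted p of 0.0118.

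Lmna, which encodes the A-type lamins of the nuclear envelope, was at 202, 210 and 195 FPKM in stretched Wnt5a siRNA, 278, 244 and 244 FPKM in stretched control, 188, 222 and 174 FPKM in unstretched Wnt5a siRNA and 168, 149 and 143 FPKM in unstretched control. Its stretch change was 0.73 ± 0.09 with control siRNA, with an adjusted p of 4.6e-05, and 0.06 ± 0.09 with Wnt5a siRNA, with an adjusted p of 0.706. Lmnb2, a B-type lamin, rose with stretch by 0.53 ± 0.11 with control siRNA, with an adjusted p of 0.0016. Under stretch, Wnt5a siRNA against control siRNA gave 0 of the 7 called higher, against 13.2% of all genes. It gave 4 lower, Krt80, Lmna, Lmnb2 and Sync, against 14.2%. Sync encodes syncoilin, a filament protein of striated muscle that binds desmin and the dystrophin complex, and it was at 21.5, 23.8 and 24.8 FPKM in stretched Wnt5a siRNA against 39.5, 30.5 and 28.3 FPKM in stretched control, a change of -0.46 with an adjusted p of 0.0131.

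For the difference of the stretch changes, 5 of the 7 were called lower and 0 higher, against 12.1% and 11.7% of all genes. The median was -0.63. Without stretch, Wnt5a siRNA gave 1 called higher, Lmna, and 0 lower, against 14.6% and 13.9% of all genes. Stretch with Wnt5a siRNA gave 0 higher and 1 lower, Sync, against 8.44% and 7.59%. The difference gave 3 calls without unstretched control 2 or 3, unstretched Wnt5a siRNA 1 or 2, stretched control 1 or stretched Wnt5a siRNA 1. The siRNA count without stretch was 3 without unstretched control 1 or stretched control 3, 2 without unstretched Wnt5a siRNA 3, and 0 without unstretched control 2 or 3 or unstretched Wnt5a siRNA 2. The stretch count with Wnt5a siRNA was 2 without stretched control 3, and 0 without unstretched Wnt5a siRNA 1 or 2 or stretched Wnt5a siRNA 1. Leaving out stretched control 3 gave 4 higher and 2 lower for stretch with control siRNA, and TPM scaling gave 3 and 2. For Wnt5a siRNA under stretch TPM scaling gave 1 higher and 2 lower, and the count of calls lay between 0 and 6 over the refits with 1 library left out, with 0 without stretched control 1 and 1 without stretched Wnt5a siRNA 1 or 3.

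Linkers join filaments to desmosomes, costameres and Z-discs, and 12 of 18 were tested. Dsp, Dsg2, Dst, Eppk1 and Dtna are not analysed here. With stretch and control siRNA 3 were called higher and 3 lower, near the 27.5% and 26.8% of all genes, with a median of 0.08. The split was 2 and 5 after TPM scaling and 2 and 4 after quantile normalization. Plec, which encodes plectin, the linker of desmin to Z-discs and costameres, was at 44.7, 51.9 and 46.4 FPKM in stretched Wnt5a siRNA, 76.2, 61.0 and 61.4 FPKM in stretched control, 53.9, 63.7 and 48.3 FPKM in unstretched Wnt5a siRNA and 45.8, 39.6 and 36.7 FPKM in unstretched control. It rose with stretch and control siRNA by 0.69 ± 0.12, with an adjusted p of 4.0e-04, and changed by -0.20 ± 0.12 with Wnt5a siRNA, with an adjusted p of 0.267. The difference was -0.89 ± 0.17, with an adjusted p of 0.0043. Zyx, the focal adhesion protein zyxin, rose with stretch by 0.63 ± 0.14 with control siRNA, with an adjusted p of 0.0018.

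Nebl, which encodes nebulette, a Z-disc protein that binds desmin, went the other way. It was at 55.7, 60.4 and 68.8 FPKM in stretched Wnt5a siRNA, 67.6, 91.5 and 36.2 FPKM in stretched control, 67.4, 55.0 and 78.6 FPKM in unstretched Wnt5a siRNA and 182, 189 and 210 FPKM in unstretched control. Unstretched control is above the other 3 groups, which overlap. Stretch changed it by -1.65 ± 0.25 with control siRNA and by -0.11 ± 0.25 with Wnt5a siRNA, with adjusted p of 1.4e-04 and 0.805. The difference was 1.55 ± 0.35, with an adjusted p of 0.0094. Macf1, a linker of actin and microtubules, fell by 0.56 with stretch and control siRNA, with an adjusted p of 5.5e-05.

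Under stretch, Wnt5a siRNA gave a median of -0.48 over the 12 linkers. Called higher were 0, against 13.2% of all genes, and called lower were 10, against 14.2%. The desmosome genes were among them: Pkp2, plakophilin 2, was at 88.3, 103 and 85.5 FPKM in stretched Wnt5a siRNA against 198, 202 and 120 FPKM in stretched control, a change of -0.87 with an adjusted p of 0.0045. Dsc2, the cadherin desmocollin 2, changed by -0.85 with an adjusted p of 0.0058, and Jup, plakoglobin, by -0.78 with an adjusted p of 0.0118. For these 3 no libraries overlapped. The count was 2 without stretched control 1, 6 without stretched control 2 and 4 without stretched Wnt5a siRNA 1 or 3. In unstretched cells Pkp2, Dsc2 and Jup were also lower with Wnt5a siRNA, at -0.40, -0.45 and -0.47, with no overlap of libraries. These did not pass, with adjusted p of 0.0844, 0.0630 and 0.0821. The difference of their stretch changes was not called either, with adjusted p of 0.161, 0.250 and 0.413.

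Of the linkers, Wnt5a siRNA without stretch gave 1 called higher, Plec, and 2 lower, Nebl and Macf1, against 14.6% and 13.9% of all genes. Without stretched control 3 it gave 1 and 6, without unstretched control 3 or unstretched Wnt5a siRNA 2 it gave 0 and 1. Stretch with Wnt5a siRNA, which called 8.44% of all genes higher and 7.59% lower, gave 0 linkers higher and 4 lower. The 4 were Vcl (vinculin), Dmd (dystrophin), Actn2 (the Z-disc alpha-actinin) and Macf1, at -0.62 to -0.23. That count was 1 without unstretched or stretched Wnt5a siRNA 1, and 2 without replicate 2 of either group or without stretched Wnt5a siRNA 3. The difference of the stretch changes gave 2 higher, Nebl and Macf1, against 11.7% of all genes. It gave 3 lower, Plec, Zyx and Tln1 (talin), against 12.1%. No refit with 1 library left out moved the count of calls by more than 1.5 times.

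**Figure D5:**
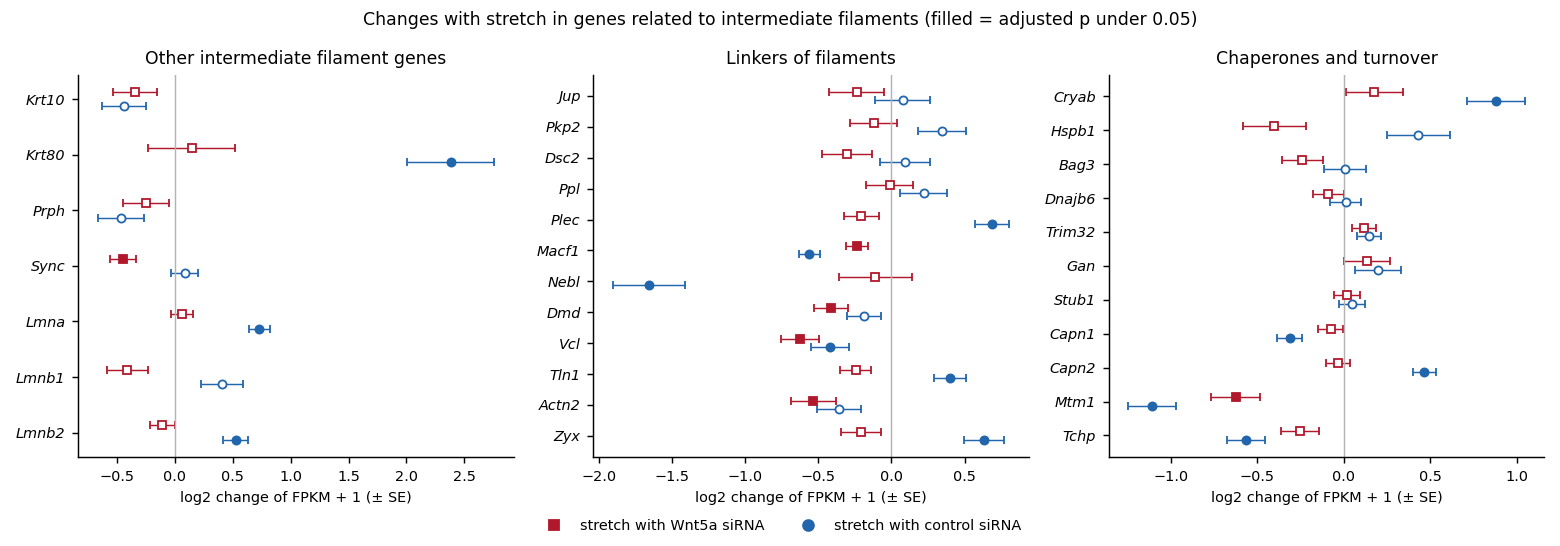
Log2 change of FPKM + 1 with stretch (x axis, ± SE) for tested genes of 3 related lists (rows); squares are Wnt5a siRNA, circles are control siRNA and filled symbols passed an adjusted p of 0.05. Krt80, Lmna, Plec and Cryab are filled and right of 0 with control siRNA only, and Nebl is filled at -1.65 with control siRNA.

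Of 11 genes for chaperones and turnover of filaments, all were tested. With stretch and control siRNA 2 were called higher, Cryab and Capn2, against 27.5% of all genes. Called lower were 3, Mtm1, Tchp and Capn1, against 26.8%, and the median was 0.05. After quantile normalization the split was 4 and 3. Cryab encodes alpha-B-crystallin, the small heat shock protein that binds desmin, and it was at 1511, 1599 and 1160 FPKM in stretched Wnt5a siRNA, 3051, 2677 and 2118 FPKM in stretched control, 1236, 1485 and 1054 FPKM in unstretched Wnt5a siRNA and 1599, 1360 and 1272 FPKM in unstretched control. The stretched control libraries are above the other 9. It rose with stretch and control siRNA by 0.88 ± 0.17, with an adjusted p of 7.4e-04, and changed by 0.18 ± 0.17 with Wnt5a siRNA, with an adjusted p of 0.507. The difference was -0.70 ± 0.23, with an adjusted p of 0.0464. That call was lost in 12 of 20 alternatives and kept in 8, with adjusted p of up to 0.115.

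Capn2, a subunit of the protease calpain 2, rose with stretch and control siRNA by 0.47 ± 0.07, with an adjusted p of 1.2e-04. Mtm1, myotubularin, a lipid phosphatase that binds desmin, was at 18.5, 20.3 and 19.8 FPKM in stretched Wnt5a siRNA, 24.9, 26.8 and 16.4 FPKM in stretched control, 29.7, 29.6 and 32.6 FPKM in unstretched Wnt5a siRNA and 45.1, 51.2 and 50.9 FPKM in unstretched control. It fell with stretch with either siRNA, by 1.11 with control siRNA and by 0.63 with Wnt5a siRNA, with adjusted p of 4.0e-05 and 0.0100. Tchp, trichoplein, a keratin-binding protein of the centrosome, fell by 0.57 with stretch and control siRNA, with an adjusted p of 9.8e-04.

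Under stretch, Wnt5a siRNA gave 1 of the 11 called higher, Tchp, against 13.2% of all genes. It gave 4 lower, Cryab, Hspb1, Capn2 and Bag3, against 14.2%. Hspb1, the small heat shock protein HSP27, was at 443, 508 and 407 FPKM in stretched Wnt5a siRNA against 973, 785 and 532 FPKM in stretched control, a change of -0.72 with an adjusted p of 0.0151. The split was 2 and 3 after TPM scaling and 0 and 3 after quantile normalization. It was 1 and 7 without stretched control 3, 1 and 2 without stretched control 1, and 0 and 2 without stretched Wnt5a siRNA 3. Without stretch, Wnt5a siRNA gave 0 higher and 1 lower, Mtm1, against 14.6% and 13.9% of all genes. The split was 1 and 1 after quantile normalization or without stretched control 1, and 1 and 2 without stretched control 3. Stretch with Wnt5a siRNA gave 0 higher and 1 lower, Mtm1 again, against 8.44% and 7.59% of all genes. That split was 0 and 3 without stretched control 3. For the difference, 0 were called higher and 3 lower, Capn2, Hspb1 and Cryab, against 11.7% and 12.1% of all genes. TPM scaling gave 2 and 2 there, and leaving out 1 library gave 1 to 5 calls: 5 without unstretched control 1, and 1 without unstretched control 2 or 3, unstretched Wnt5a siRNA 1 or 2, stretched control 1 or stretched Wnt5a siRNA 1 or 3.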

How the data were processed

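RNA of cultured rat cardiomyocytes was sequenced in 12 stranded mRNA libraries, per the labels' protocols. Each deposited file holds the authors' FPKM per gene symbol. The genome build rn6 and the programs Bowtie2, TopHat2 2.1.1 and Cuffdiff 2.2.1 are named in the submitters' processing notes. The sources used here give neither annotation nor strand setting, so overlapping genes are uncertain.

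The 7 genes and all lists were chosen with earlier results of these data known. Genes with at least 1 FPKM in at least 3 libraries, 10518 of 17312, were fitted as log2(FPKM + 1) over 4 group means with limma 3.58.1 (eBayes with a trend, 8 residual degrees of freedom) in R 4.3.3. Tests were 2-sided, with p-values adjusted over all genes (Benjamini-Hochberg) and a threshold of 0.05. Fits were checked on simulated data. Of 1523 low genes, 1457 (95.7%) lay in whole ratios to within 0.03 of the lowest value, where that value could stand for 1, 2 or 3 fragments. The value of 1 fragment spanned 1.21-fold. Fragments were not recovered for a count test.

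Named were all 7 genes, up to 4 called genes of each related list by smallest adjusted p in each comparison, and the 3 genes most alike, of which 1 is not reported here. Bag3 and Capn1 are named only to account for counts, chosen after their values were seen. Markers were summed per library. Upstream windows came from RefSeq, assembly GRCr8, which is not the build of the data.

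Deviations from the group means of same-numbered libraries correlated at 0.184, 0.242 and 0.143 between stretched and unstretched Wnt5a siRNA. All are over 0.1, so these libraries were taken as paired, though the labels do not say what the numbers share. Differently numbered libraries were not compared in this way. Other comparisons had a pair under 0.1. Alternatives were a pseudocount of 0.1, no filter, a filter of 5 FPKM, median ratio, TPM and quantile scaling, the replicate block, no trend, only the libraries compared, and each library left out. Running these alternatives for the related lists was chosen after seeing the data.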

Additional observations from a re-analysis of the deposited data

Results flagged for a closer look

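The stretch responses under both siRNAs were compared directly, as the change with Wnt5a siRNA minus that with control siRNA, and 3 of the 7 genes passed that test. The log2 difference was -1.20 for Des, with an adjusted p of 0.0047 from limma. For Nes it was -1.33 with an adjusted p of 0.0025, and for Synm -1.14 with an adjusted p of 0.0081. Each kept its direction and its call under all 20 alternatives run for it, at -1.38 to -1.05 for Des, -1.44 to -1.12 for Nes and -1.29 to -0.998 for Synm. In stretched cells the Wnt5a transcript itself was not distinguished between the siRNAs, at 5.89 FPKM with Wnt5a siRNA and 6.80 FPKM with control siRNA.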

How the results depend on the processing

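Over 21 alternatives, results of the 7 genes kept direction and side of the threshold in 648 cases, lost a call in 54, gained one in 12 and changed sign in 9. The cause was not tested. The count of genes called for stretch with control siRNA was 2 with TPM scaling and 4 with only the libraries compared. Krt8 was 0.85 without a filter or with only the libraries compared and 0.63 with TPM scaling, and Krt18 1.15 in the first 2 and 0.93 with TPM scaling, none past the threshold. For Wnt5a siRNA under stretch, only the libraries compared gave 3 genes called and Krt8 at -1.09, no longer past it. Without stretch Krt8 was -0.91 and no longer past it without a filter or without a trend, and Krt18 was -0.67 and past it with only the libraries compared. For stretch with Wnt5a siRNA the count was 0 without a filter and 3 with only the libraries compared, which put Krt8 at 0.66 and Krt18 at 0.75 past the threshold.

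With 1 library left out, the count of genes called was 3 to 7 for stretch with control siRNA, with Krt8 at 0.55 to 1.34 and Krt18 at 0.77 to 1.86. It was 3 to 6 for Wnt5a siRNA under stretch, with Krt8 at -1.59 to -0.80 and Krt18 at -1.77 to -0.69, and 3 to 6 without stretch, with Krt8 at -0.99 to -0.77 and Krt18 at -0.78 to -0.51. It was 0 to 3 for stretch with Wnt5a siRNA, with Krt8 at 0.52 to 0.79 and Krt18 at 0.65 to 0.90, and 3 to 5 for the difference, with Krt8 at -0.68 to 0.11 and Krt18 at -1.10 to -0.023. Des, near 0, changed sign for Wnt5a siRNA without stretch without unstretched control 2 (-0.029) or unstretched Wnt5a siRNA 2 (-0.11), in a range of -0.11 to 0.093. For stretch with Wnt5a siRNA it did so without unstretched Wnt5a siRNA 2 (0.081), stretched Wnt5a siRNA 1 (0.047) or stretched Wnt5a siRNA 3 (0.064), in a range of -0.22 to 0.081. Quantile normalization turned Vim to -0.034 for stretch with control siRNA and -0.12 with Wnt5a siRNA. With FPKM + 1 the log2 ratio of Krt19 to Krt18 for stretch with control siRNA was -0.56, against 0.56.

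With the replicate number as a block, stretch with Wnt5a siRNA gave 2 genes called, Nes being added. The other comparisons were not taken as paired, since each had a same-numbered pair with a correlation under 0.1. For Wnt5a siRNA under stretch the correlations were 0.219, 0.095 and 0.231. There the block put Krt18 past the threshold, at -1.07 and an adjusted p of 0.0434. In these comparisons the block changed no other call of the 7 genes. FPKM without read numbers limit what can be said of Krt19.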
